A study of Mus musculus with 8 samples.

Results

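The genes described here are 35 genes of glycolysis and of the response to low oxygen, given as a list of symbols and found by symbol in the deposited gene tables, which list 21051 genes. All 35 were present and all 35 could be tested between the genotypes. They comprise 21 glycolytic genes (glucose uptake, hexokinases, the steps from glucose 6-phosphate to pyruvate, and lactate production and transport) and 14 genes of the hypoxia response. The rule for the list uses no measured value, but the list was chosen with earlier results of these data known. RNA came from tumor-associated macrophages (TAMs) of s.c. melanomas, taken on day 14 after C57BL/6 mice had been injected with B16 cells, a pigment-forming melanoma line derived from that strain. The TAMs were sorted for CD45 and F4/80, the leukocyte and macrophage surface markers. The 4 TAM-WT libraries were from WT littermates. The 4 TAM-KO libraries were from homozygous Colec11-/- mice, which carry the deletion in every tissue and had been back-crossed to C57BL/6. Male mice were used in both groups. Colec11 encodes collectin-11 (CL-11), a soluble C-type lectin. Each library is 1 sample of 1 group, so p-values measure the spread between these samples.

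Glycolysis splits glucose into pyruvate in the cytosol. Glucose enters through transporters such as GLUT1, is trapped by hexokinases, and passes through a series of enzymes of which phosphofructokinase is the main point of control, and lactate dehydrogenase then turns pyruvate into lactate, which leaves the cell with a proton. Hypoxia-inducible factors (HIFs) are pairs of an oxygen-labile α subunit, such as HIF-1α or HIF-2α, and the stable β subunit ARNT. In oxygen, prolyl hydroxylases mark the α subunit for the von Hippel-Lindau (VHL) ubiquitin ligase, so that HIF activity is set mainly by the stability of the protein and not by its mRNA. In low oxygen the pair binds a short DNA element near its target genes, among them most glycolytic enzymes and the hydroxylases themselves. Macrophages use glycolysis for ATP and are known to gather in oxygen-poor areas of tumors.

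The core letters of the HIF-binding element are RCGTG, searched here as ACGTG and GCGTG on both strands. The windows searched ran from 250 bases before to 50 bases after a RefSeq transcript start on GRCm38.p6, and 33 of the 35 genes had at least 1 window. Of their 47 windows, 80.9% held a match, beside 61.1% of the windows of all tested genes and 43.8% of all 32851 windows. The median GC content was 63.3% for the members' windows and 60.7% for the windows of tested genes, and both motifs hold a CG. Stretches before the start are shown for 7 genes: the glucose transporter gene Slc2a1, Ldha and Pgk1 as glycolytic genes whose windows hold ACGTG, and Bnip3, Pdk1, Ankrd37 and Egln3 as hypoxia-response genes whose values are described below. Each reads 5′ to 3′ on the strand of its gene. Capitals mark ACGTG and GCGTG, which read CACGT and CACGC where they lie on the other strand. CACGTG is a match on both strands.
Slc2a1 (chr4:119108665-119108714, + strand): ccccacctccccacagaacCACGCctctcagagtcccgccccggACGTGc
Ldha (chr7:46845644-46845803, + strand): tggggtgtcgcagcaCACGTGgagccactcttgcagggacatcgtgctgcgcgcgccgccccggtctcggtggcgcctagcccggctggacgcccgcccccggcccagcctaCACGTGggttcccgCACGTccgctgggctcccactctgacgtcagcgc
Pgk1 (chrX:106186930-106187009, + strand): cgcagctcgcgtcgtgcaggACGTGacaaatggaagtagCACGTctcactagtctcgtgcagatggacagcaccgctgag
Bnip3 (chr7:138909527-138909636, − strand): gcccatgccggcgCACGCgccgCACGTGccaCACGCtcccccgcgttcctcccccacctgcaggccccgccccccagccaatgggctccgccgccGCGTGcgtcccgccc
Pdk1 (chr2:71873124-71873213, + strand): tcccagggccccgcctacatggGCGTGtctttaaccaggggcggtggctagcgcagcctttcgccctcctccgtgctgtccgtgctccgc
Ankrd37 (chr8:45999871-46000100, − strand): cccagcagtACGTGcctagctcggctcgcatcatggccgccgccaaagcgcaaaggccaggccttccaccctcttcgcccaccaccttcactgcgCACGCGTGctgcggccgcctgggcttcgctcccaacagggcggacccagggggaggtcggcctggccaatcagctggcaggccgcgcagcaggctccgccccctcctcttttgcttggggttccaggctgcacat
Egln3 (chr12:54204045-54204124, − strand): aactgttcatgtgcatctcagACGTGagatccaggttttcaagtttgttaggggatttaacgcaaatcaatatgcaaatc

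Counted by strand, the stretch of Ldha held 5 matches, all of them ACGTG, and that of Bnip3 held 5, of which 2 were ACGTG and 3 were GCGTG. The Pdk1 and Egln3 stretches held 1 match each, GCGTG in Pdk1 and ACGTG in Egln3. Among the 33 genes, only Gpi1 and Tpi1 had no match in any of their windows, so the letters were present both in genes whose levels differed little between the genotypes (Pgk1, Ldha) and in the genes with the lowest fold changes that had a window (Egln3, Ankrd37). Ndrg1 and Epas1 had no window in the table used.

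The libraries were of even depth, and 1 of them was incomplete. Reads on genes ranged from 16225362 to 17280267 in the 7 libraries with a complete table. The table of TAM-KO replicate 1 lacks 5311 consecutive genes, and 20 of the 35 members are among them. These 20 were tested on 3 TAM-KO libraries and the other 15 on 4, always against 4 TAM-WT libraries. For Egln3, Ndrg1 and Epas1 the FPKM of TAM-KO replicate 1 was taken from the authors' series-wide table, which lists mostly genes that differ between the groups, and it enters levels but not the test, as for some genes of the other lists. Colec11 itself had 1, 4, 0 and 1 estimated counts in TAM-WT and 1 in each TAM-KO library, so that the genotype could not be checked from these cells. All 11 macrophage markers were expressed (Cd68 at 1825 to 2312 FPKM in TAM-WT and 1337 to 1859 in TAM-KO replicates 2 to 4, Adgre1, which encodes F4/80, at 182 to 239 over the same 7 libraries), and 0 of the 11 passed the test in edgeR, with 4 at an unadjusted p under 0.05, the same 4 called by DESeq2 and 1 by limma on either FPKM scale. Of all genes tested, 9.81% passed in edgeR and 30.7% had an unadjusted p under 0.05. DESeq2 called 18.2% of all genes, and limma 10.7% (FPKM + 1) and 10.3% (FPKM + 0.1). Of the 4 markers, Lyz2 (log2 fold change −0.70), Cd68 (−0.55) and Mertk (−0.35) were lower in TAM-KO. The other, Fcgr1 (0.49), was higher and was the call of limma.

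Few genes of the list passed the test between the genotypes. Of the 35 genes, 1 passed the test across all genes (edgeR's quasi-likelihood test on rounded expected counts, adjusted p of at most 0.05), beside 9.81% of the 12412 genes tested. This was Pdk1, which fell in TAM-KO, beside 5.24% of all genes that passed lower, and 0 members rose, beside 4.58%. With a fold change of at least 2 required as well, 0 of 35 passed, beside 2.53% of all genes. At an unadjusted p under 0.05 there were 9 of 35, beside 30.7% of all genes tested. The fitted log2 fold change of TAM-KO over TAM-WT was below 0 for 24 of 35 genes, beside 49.7% of all genes, with a median of −0.12 beside 0.0016 for all genes. The 14 hypoxia-response genes had a median of −0.25 with 11 below 0, and the 21 glycolytic genes a median of −0.076 with 13 below 0. These medians moved when single libraries were left out. Over all fits the hypoxia-response median ranged from −0.36 (without TAM-KO replicate 3) to −0.14 (limma on FPKM + 1). Without TAM-KO replicate 2 the median was −0.022 for the list, −0.15 for the hypoxia-response genes (8 below 0) and −0.018 for the glycolytic genes (11 below 0). Without TAM-WT replicate 3 it was −0.042, −0.19 (9 below 0) and −0.005 (11 below 0). For the glycolytic genes it turned above 0 with scaling to total reads (0.034) and with limma on either FPKM scale (0.026), with 9 below 0 in each, and stayed below the median of all genes in those fits. The number that passed also changed with the libraries, as it did over all genes. It was 0 without TAM-WT replicate 3, TAM-WT replicate 4 or TAM-KO replicate 2, beside 1.21%, 3.34% and 0.617% of all genes. It was 2 without TAM-WT replicate 1, beside 9.31%, and 10 without TAM-WT replicate 2 (Aldoc, Ankrd37, Egln3, Ldhb, Mxi1, Ndrg1, Pdk1, Pfkfb3, Slc16a3 and Slc2a1), beside 22.2%. DESeq2 called 6 of 35, beside 18.2%, and limma 1, Hk1 in place of Pdk1, beside 10.7% (FPKM + 1) and 10.3% (FPKM + 0.1). In bulk RNA, fewer cells that express a gene and less RNA per cell cannot be told apart.

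**Figure D1:**
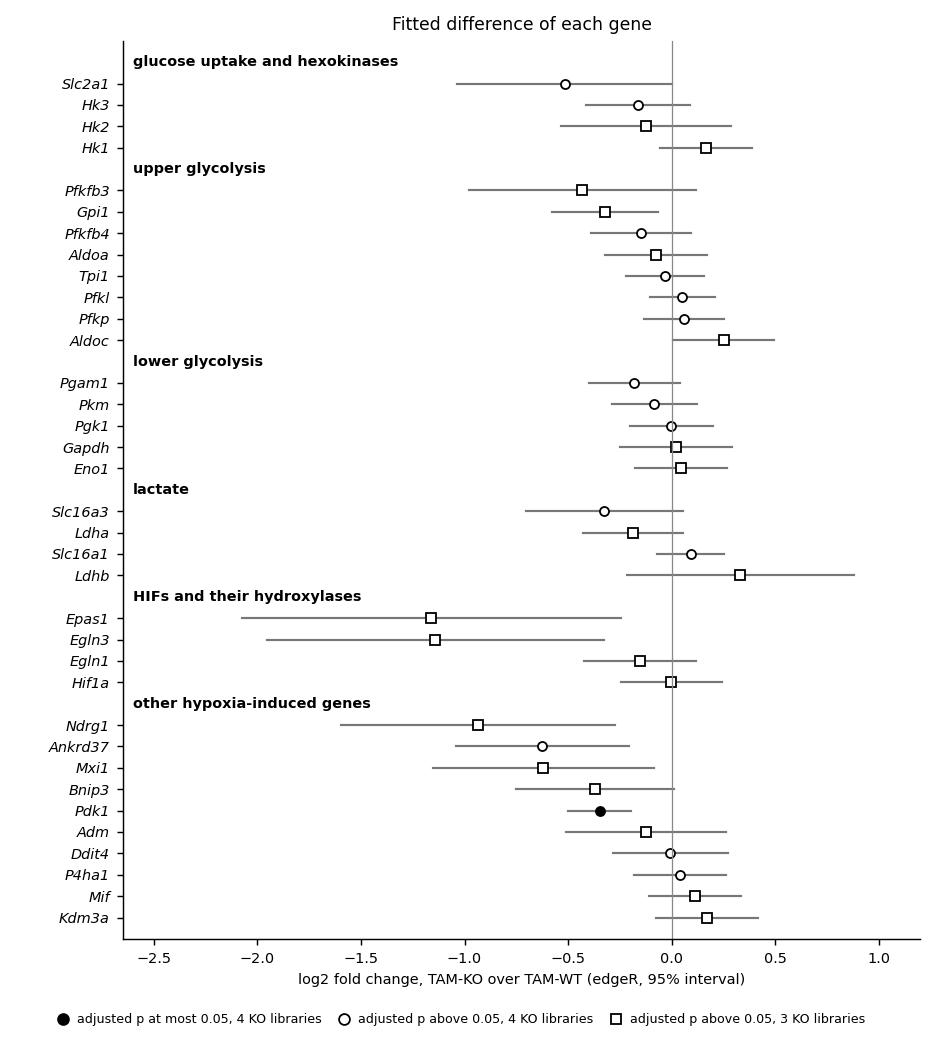
Fitted log2 fold change of TAM-KO over TAM-WT for each of the 35 genes by role (points) with its 95% interval (lines). The filled point, Pdk1 at −0.35, is the only gene with an adjusted p of at most 0.05, and circles and squares mark genes tested on 4 and on 3 TAM-KO libraries.

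The highest levels of the list were those of glycolytic mRNAs. They are levels in bulk RNA that also held melanoma marker RNA. FPKM, which is per length and so can be compared between genes, averaged above 100 in 15 of the 35 genes. In TAM-WT the highest level was that of Gapdh, glyceraldehyde 3-phosphate dehydrogenase, at 7237 ± 303 FPKM (SD, n = 4). Aldoa (aldolase A, 2039 ± 94.8), Eno1 (enolase 1, 1959 ± 135) and Pkm (pyruvate kinase M, 1880 ± 67.1) followed. Aldoa lay above Pkm within each TAM-WT library, and the range of Eno1 overlapped those of both. Mif, a cytokine gene that HIF induces, stood at 1381 ± 110 FPKM and Ldha at 1336 ± 38.6, without a difference beyond their spread. The lowest was Epas1, which encodes HIF-2α, at 1.45 ± 0.67 FPKM, against 59.5 ± 4.97 for Hif1a. FPKM of the 21 glycolytic genes summed to 18010, 19620, 18849 and 18989 in the WT libraries, in order of replicate, against 18740, 21697 and 18787 in TAM-KO replicates 2 to 4, and the groups overlapped. On the FPKM scale the median gene of all genes lies 0.089 above 0 (log2 of FPKM + 1, TAM-KO over TAM-WT), so FPKM values of TAM-KO read slightly high beside the fitted fold changes. Several of these genes (Gapdh, Pgk1, Eno1, Tpi1, Ldha, Mif and others) have processed pseudogenes of near-identical sequence, and their reads are uncertain to that extent.

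**Figure D2:**
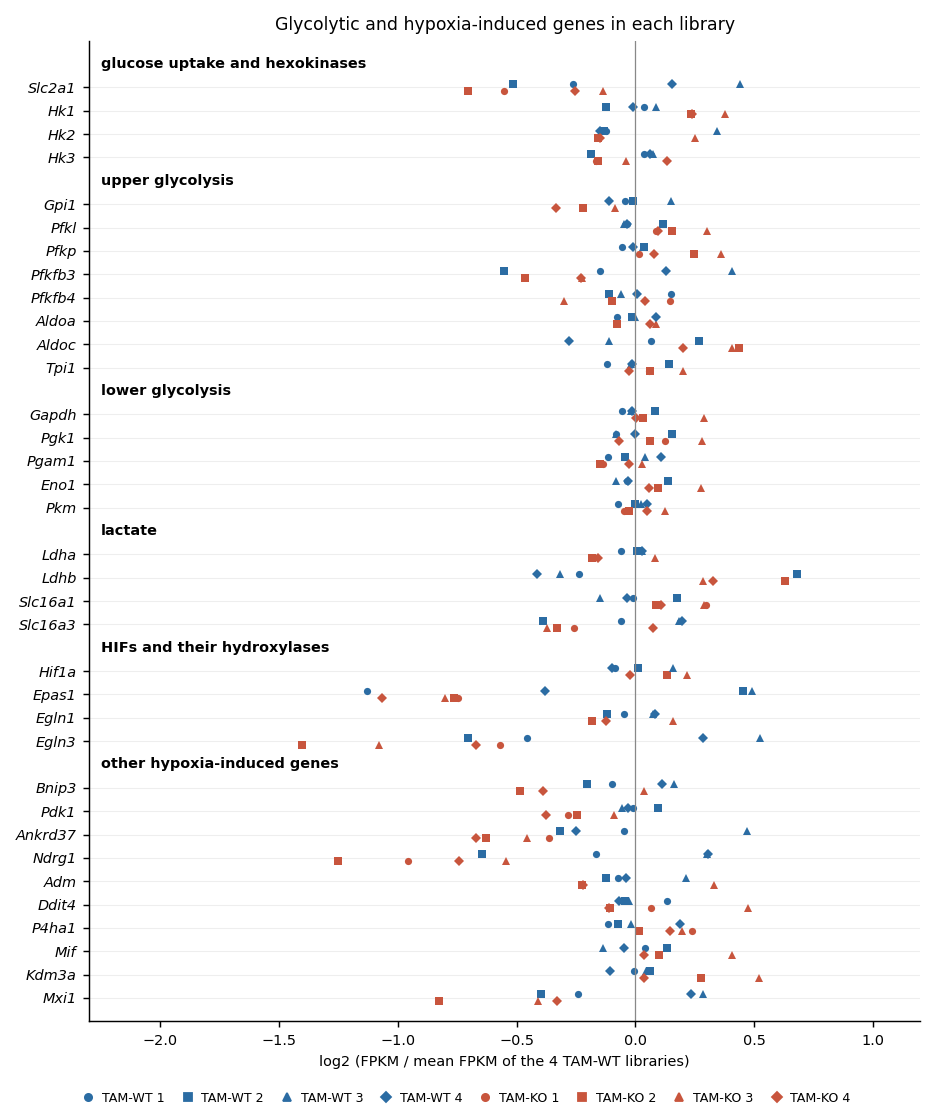
FPKM of each of the 35 genes in each library, as log2 of its ratio to the mean of the 4 TAM-WT libraries, with TAM-WT in blue, TAM-KO in red and 1 symbol per replicate number. Points of Pkm, Aldoa and Gapdh lie close together, while those of Egln3, Epas1 and Ndrg1 spread widely within TAM-WT. Egln3, Epas1 and Ndrg1 have a lower mean in TAM-KO, but their groups overlap.

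Of glucose uptake and the hexokinases, 0 of 4 genes passed in edgeR, with 1 at an unadjusted p under 0.05 (Slc2a1), 0 called by DESeq2 and 1 (Hk1) by limma on either FPKM scale. Beside the counts of each role here and below, 9.81% of all genes passed in edgeR and 30.7% had an unadjusted p under 0.05. DESeq2 called 18.2% of all genes, and limma 10.7% (FPKM + 1) and 10.3% (FPKM + 0.1). Slc2a1 encodes GLUT1, the main basal glucose transporter (chr4:119108745-119137330). Slc2a1 stood at 184, 155, 299 and 245 FPKM in TAM-WT and at 150.5, 135, 201 and 185 in TAM-KO, both from replicate 1 to replicate 4, as are all values by library here. TAM-WT replicates 3 and 4 were the highest of all 8, and TAM-WT replicates 1 and 2 lay within the TAM-KO range. Its log2 fold change was −0.52 (SE 0.23, adjusted p = 0.163, edgeR), and it ranged from −0.67 to −0.29 over the alternatives. Hk1, Hk2 and Hk3 encode the hexokinases that commit glucose to the cell. Hk1 stood at 54.9, 49.2, 56.9 and 53.1 FPKM in TAM-WT and at 63.0, 69.5 and 63.1 in TAM-KO replicates 2 to 4. Every TAM-KO value of Hk1 lay above every TAM-WT value, as it did for 18.2% of all genes compared on 4 against 3 libraries (the reverse held for 0 members so compared and 8.29% of all genes), and with TMM scaling the log2 fold change was 0.17 (SE 0.097, adjusted p = 0.286, edgeR). Hk2 (63.4 ± 11.4 FPKM in TAM-WT, n = 4, and 63.2 ± 10.6 in TAM-KO, n = 3) and Hk3 (102 ± 8.44 and 98.4 ± 9.81, n = 4 each) overlapped between the groups.

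The share of each hexokinase in the FPKM of the 3 genes restates these same values. Hk3 held the largest share, 46.7% ± 2.39 in TAM-WT (SD, n = 4) and 44.0% ± 3.83 in TAM-KO (n = 3). The share of Hk1 was 25.2%, 25.0%, 23.2% and 24.5% in TAM-WT, against 29.8%, 28.5% and 27.2% in replicates 2 to 4 of TAM-KO. These shares did not overlap between the groups and were given no separate test. Hk2 made up the rest in each library.

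In upper glycolysis, the steps up to triose phosphates, 0 of 8 genes passed in edgeR, with log2 fold changes from −0.43 to 0.25. At an unadjusted p under 0.05 there were 2 (Gpi1 and Aldoc), DESeq2 called 1 (Gpi1) and limma 0. Gpi1 encodes glucose-6-phosphate isomerase (chr7:34201327-34230336). Gpi1 stood at 510.2, 522, 582 and 487 FPKM in TAM-WT and at 450.3, 495 and 417 in TAM-KO replicates 2 to 4. Only TAM-KO replicate 3 reached into the TAM-WT range. Its log2 fold change was −0.32 (SE 0.11, adjusted p = 0.0977, edgeR). The genes of the phosphofructokinase subunits, Pfkl and Pfkp, differed by 0.051 and 0.059 in log2 fold change, with 95% intervals of −0.11 to 0.21 and −0.13 to 0.25. Pfkl and Pfkp each made up close to equal parts of the phosphofructokinase FPKM, 47.4% ± 0.76 and 48.0% ± 1.48 in TAM-WT and 46.9% ± 1.18 and 48.0% ± 1.30 in TAM-KO (n = 4 each), and Pfkm the small remainder.

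Pfkfb3 and Pfkfb4 encode the bifunctional enzymes that set fructose 2,6-bisphosphate, the activator of phosphofructokinase. Pfkfb3 stood at 62.4, 47.0, 91.6 and 75.5 FPKM in TAM-WT and at 50.03, 59.1 and 58.9 in TAM-KO replicates 2 to 4. Again TAM-WT replicates 3 and 4 were the highest and replicate 2 the lowest of all (log2 fold change −0.43, SE 0.24, adjusted p = 0.257, edgeR). With 1 library left out, the value of Pfkfb3 ranged from −0.59 to −0.23. Pfkfb4 was lower in level, 12.4 ± 1.003 FPKM in TAM-WT and 12.1 ± 1.58 in TAM-KO (n = 4 each), and overlapped. Aldoc, the minor aldolase gene, stood at 13.8, 15.8, 12.2 and 10.8 FPKM in TAM-WT and at 17.8, 17.5 and 15.1 in TAM-KO replicates 2 to 4. TAM-KO replicates 2 and 3 lay above all TAM-WT values and replicate 4 did not. Its log2 fold change was 0.25 (SE 0.11, adjusted p = 0.155, edgeR), while Aldoa held over 99% of the summed FPKM of Aldoa and Aldoc in every library with a value. For Aldoa and Tpi1 (triose phosphate isomerase) the log2 fold changes were −0.076 and −0.033, and their sign turned under some alternatives.

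Lower glycolysis, from Gapdh to pyruvate kinase, was the role with the smallest differences. None of Gapdh, Pgk1 (phosphoglycerate kinase), Pgam1 (phosphoglycerate mutase), Eno1 and Pkm passed in edgeR, and 0 of 5 had an unadjusted p under 0.05 or were called by DESeq2 or limma. Gapdh stood at 6969, 7673, 7149 and 7159 FPKM in TAM-WT and at 7394, 8852 and 7249 in TAM-KO replicates 2 to 4. TAM-KO replicate 3 was the highest, as it was of the TAM-KO libraries for 24 of the 35 genes. The log2 fold change of Gapdh was 0.020 (95% interval −0.25 to 0.29) and that of Pgk1 −0.0016 (−0.20 to 0.20). Pgam1, at −0.18, had the lowest of the 5, with an interval of −0.40 to 0.039. Pkm stood at −0.084 and Eno1 at 0.045, the highest, and of the 5 only Pgam1 kept its sign under all 17 alternatives.

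In the lactate group 0 of 4 passed in edgeR, DESeq2 or limma, and 0 had an unadjusted p under 0.05. Ldha and Ldhb encode the subunits of lactate dehydrogenase, of which the Ldha product favors lactate formation. Ldha stood at 1279, 1341, 1362 and 1360 FPKM in TAM-WT and at 1175, 1413 and 1196 in TAM-KO replicates 2 to 4. TAM-KO replicates 2 and 4 lay below every TAM-WT value and replicate 3 above all of them, so that the groups overlapped (log2 fold change −0.19, SE 0.11, adjusted p = 0.269, edgeR). Ldhb stood at 78.6, 149, 74.4 and 69.6 FPKM in TAM-WT and at 144, 113 and 116 in TAM-KO replicates 2 to 4. TAM-WT replicate 2 was the highest of all, and the other 3 TAM-WT libraries lay below every TAM-KO value. For Ldhb the log2 fold change was 0.33 (SE 0.24, adjusted p = 0.383, edgeR). With 1 library left out it ranged from 0.23 to 0.62, with adjusted p from 0.00696 to 0.655 (edgeR). Ldhb passed in 1 of 17 alternatives, the fit without TAM-WT replicate 2 (0.62, adjusted p = 0.00696), in which 22.2% of all genes passed. The share of Ldhb in lactate dehydrogenase FPKM was 5.79%, 9.97%, 5.18% and 4.87% in TAM-WT and 10.9%, 7.41% and 8.86% in TAM-KO replicates 2 to 4.

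Slc16a3 and Slc16a1 encode the lactate transporters MCT4, which favors export, and MCT1. Slc16a3 stood at 88.3, 70.3, 105 and 105 FPKM in TAM-WT and at 77.1, 73.3, 71.3 and 97.1 in TAM-KO. TAM-WT replicates 3 and 4 were the highest, and TAM-WT replicate 2 was the lowest of all 8 (log2 fold change −0.32, SE 0.17, adjusted p = 0.225, edgeR). Slc16a1 was lower in level, 13.5 ± 1.28 FPKM in TAM-WT and 15.5 ± 1.22 in TAM-KO (n = 4 each), with a log2 fold change of 0.091. Slc16a3 held 86.8% ± 3.34 of the FPKM of both transporters in TAM-WT and 83.5% ± 2.50 in TAM-KO (n = 4 each), and these ranges overlapped.

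**Figure D3:**
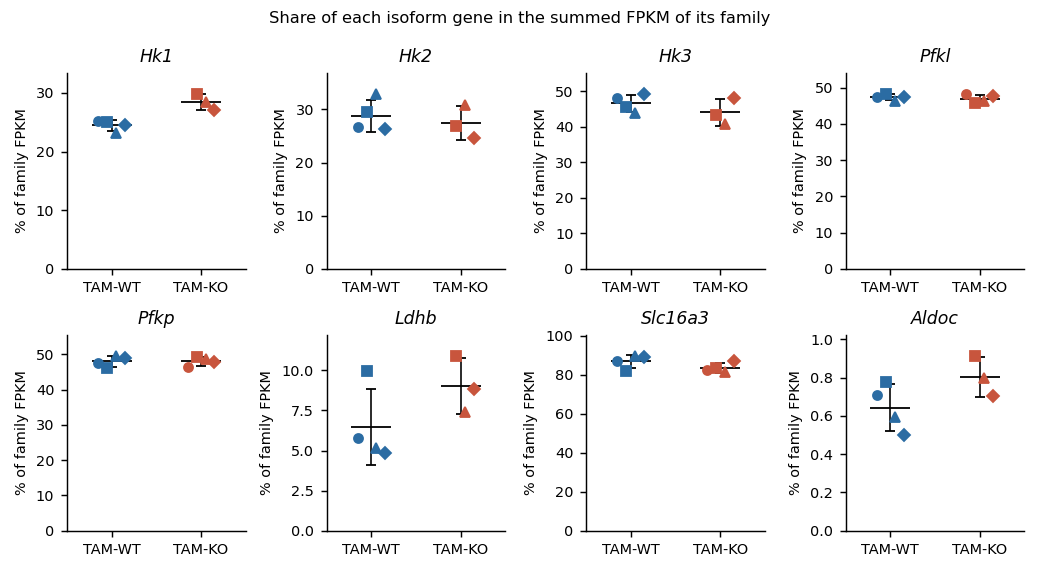
Share of each gene, in percent, in the summed FPKM of its family (hexokinases, phosphofructokinases, lactate dehydrogenases, lactate transporters, aldolases) in each library, with the group mean and SD as bars. The Hk1 share lies at 23.2% to 25.2% in TAM-WT and at 27.2% to 29.8% in the 3 TAM-KO libraries with values, and the Ldhb share of TAM-WT replicate 2 (9.97%) lies with the TAM-KO libraries.

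Among the HIF subunits and hydroxylases, 0 of 4 passed in edgeR and 0 were called by limma. An unadjusted p under 0.05 was found for 2 (Egln3 and Epas1), beside 30.7% of all genes. DESeq2 called the same 2, beside 18.2% of all genes. All 4 fitted values were below 0, but that of Hif1a was near 0 and had the other sign in 7 of 17 alternatives. Hif1a stood at 56.1, 59.9, 66.3 and 55.6 FPKM in TAM-WT and at 65.2, 69.1 and 58.5 in TAM-KO replicates 2 to 4. The groups overlapped, and the fitted log2 fold change was −0.0020, with a 95% interval of −0.25 to 0.24. Epas1 stood at 0.66, 1.98, 2.03 and 1.11 FPKM in TAM-WT and at 0.86, 0.85, 0.83 and 0.69 in TAM-KO. TAM-WT replicate 1 was the lowest of all 8 and the other 3 TAM-WT libraries lay above every TAM-KO value (log2 fold change −1.16, SE 0.40, adjusted p = 0.0937, edgeR).

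Egln1 and Egln3 encode the prolyl hydroxylases PHD2 and PHD3, of which the Egln3 gene is itself strongly induced by HIF. Egln3 (chr12:54178981-54203874) stood at 19.9, 16.7, 39.2 and 33.2 FPKM in TAM-WT and at 18.4, 10.3, 12.9 and 17.1 in TAM-KO. TAM-WT replicates 3 and 4 were the highest, TAM-WT replicates 1 and 2 lay near the upper TAM-KO values, and the groups overlapped. For Egln3 the log2 fold change was −1.14 (SE 0.35, adjusted p = 0.0739, edgeR), and it stayed below 0 over the 17 alternatives, from −1.38 to −0.87. Egln1 stood at 51.8 ± 3.46 FPKM in TAM-WT (n = 4) and 50.3 ± 6.56 in TAM-KO (n = 3), with a log2 fold change of −0.15.

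Of the 10 other hypoxia-induced genes 1 passed in edgeR, Pdk1, the only call of edgeR among the members. An unadjusted p under 0.05 was found for 4, DESeq2 called 3 (Ankrd37, Ndrg1 and Pdk1) and limma 0. Pdk1 encodes pyruvate dehydrogenase kinase 1, which restrains the entry of pyruvate into the mitochondrial citric acid cycle (chr2:71873215-71903858). Pdk1 stood at 32.1, 34.6, 31.1 and 31.7 FPKM in TAM-WT and at 26.6, 27.3, 30.5 and 25.0 in TAM-KO. Every TAM-KO library lay below every TAM-WT library, as for 4.8% of all genes compared on 4 against 4 libraries. Pdk1 fell by 0.35 on the log2 scale (SE 0.068, adjusted p = 0.0220, edgeR), a 1.27-fold lower level. It passed under 12 of 17 alternatives. With limma it did not pass on either FPKM scale (adjusted p = 0.0593 with FPKM + 1 and 0.059 with FPKM + 0.1). In edgeR its adjusted p was 0.0706 without TAM-WT replicate 3, 0.0511 without TAM-WT replicate 4 and 0.0873 without TAM-KO replicate 2. It ranged from 0.0137 to 0.0873 over the 8 fits that leave out 1 library.

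Ankrd37 encodes an ankyrin-repeat protein that hypoxia induces (chr8:45996908-46000414). Ankrd37 stood at 19.7, 16.4, 28.3 and 17.2 FPKM in TAM-WT and at 15.8, 13.2, 14.8 and 12.8 in TAM-KO. Again every TAM-KO library lay below every TAM-WT library, though TAM-WT replicate 3 stood well above the others. Ankrd37 had a log2 fold change of −0.62 (SE 0.19, adjusted p = 0.0613, edgeR), which missed the threshold. With 1 library left out the value ranged from −0.73 to −0.39 and its adjusted p from 0.0209 to 0.168.

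Ndrg1, a stress- and hypoxia-responsive gene (chr15:66929318-66969641), stood at 165, 118, 228 and 228 FPKM in TAM-WT and at 95.2, 77.5, 127 and 110.4 in TAM-KO. Only TAM-WT replicate 2 lay below the highest TAM-KO library. Its log2 fold change was −0.94 (SE 0.29, adjusted p = 0.0721, edgeR), a 1.91-fold lower level in TAM-KO. Mxi1, a repressor of the MYC network (chr19:53310128-53373293), stood at 59.8, 53.7, 86.2 and 83.2 FPKM in TAM-WT and at 39.9, 53.2 and 56.3 in TAM-KO replicates 2 to 4. TAM-WT replicates 3 and 4 were the highest and TAM-WT replicate 2 lay within the TAM-KO range (log2 fold change −0.62, SE 0.23, adjusted p = 0.117, edgeR).

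Bnip3, whose product acts in mitophagy, stood at 186, 173, 223 and 215 FPKM in TAM-WT and at 142, 204 and 152 in TAM-KO replicates 2 to 4. TAM-KO replicates 2 and 4 lay below every TAM-WT value and replicate 3 within their range (log2 fold change −0.37, SE 0.17, adjusted p = 0.174, edgeR). The other 5 genes of the role overlapped between the groups and had adjusted p-values from 0.317 to 0.980 in edgeR. Adm (adrenomedullin, a vasodilator peptide) had a log2 fold change of −0.12, Ddit4 (an inhibitor of mTORC1 signaling) of −0.0061 and P4ha1 (collagen prolyl 4-hydroxylase) of 0.039. Mif stood at 0.11 and Kdm3a, a histone H3 lysine demethylase gene, at 0.17. The 10 genes of this role ranged from −0.94 to 0.17.

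**Figure D4:**
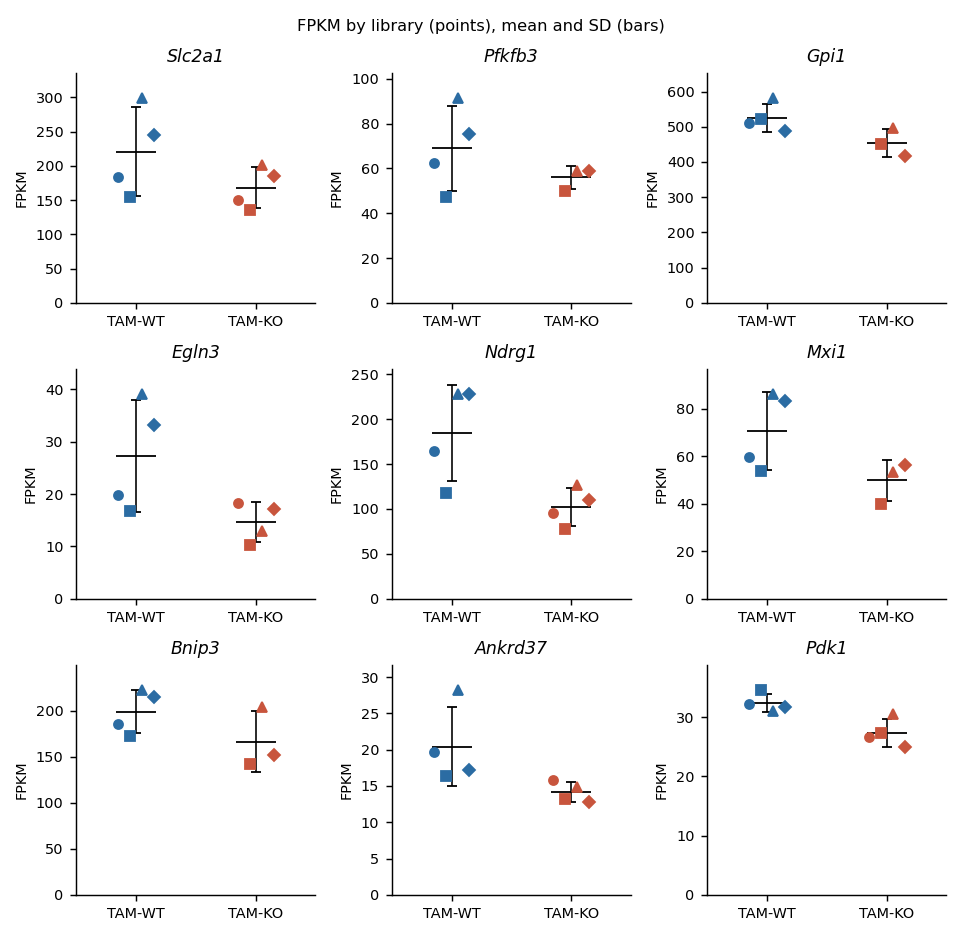
FPKM of 9 genes in each library (symbols by replicate number, TAM-WT in blue and TAM-KO in red), with the group mean and SD as bars and each axis from 0. In Slc2a1, Pfkfb3, Egln3, Ndrg1 and Mxi1 the triangle and diamond of TAM-WT (replicates 3 and 4) are the highest points, and in Pdk1 and Ankrd37 no TAM-KO point reaches the lowest TAM-WT point.

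The libraries of TAM-WT differed among themselves in these genes. TAM-WT replicate 3 was the highest of its group for 14 of the 35 genes, replicate 2 for 12, replicate 4 for 7 and replicate 1 for 2. Replicate 3 or 4 was thus the highest for 60.0% of the members, beside 27.9% of all genes tested on the same FPKM scale, and for all 4 of the HIF and hydroxylase group. Within TAM-WT, the highest library exceeded the lowest 2.34-fold for Egln3, 1.93-fold for Ndrg1 and Slc2a1 and 1.95-fold for Pfkfb3, but 1.09-fold for Pkm and 1.06-fold for Ldha. The 7 genes with the lowest fold changes had coefficients of variation of 23.2% to 46.5% over the TAM-WT libraries, and every other gene except Ldhb (40.3%) was at or under 18.0%.

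Genes next to these steps were read from the same fit, in which 9.81% of all genes passed, 4.58% higher and 5.24% lower in TAM-KO. Of other glycolytic and isoform genes 1 of 13 tested passed, Slc2a3 (GLUT3), which fell by 0.31 on the log2 scale (SE 0.086, adjusted p = 0.0480, edgeR). Slc2a3 stood at 5.87, 6.65, 5.29 and 5.65 FPKM in TAM-WT and 5.77, 4.78, 5.16 and 4.55 in TAM-KO, a small part of Slc2a1, and the groups overlapped on this scale. DESeq2 also called Slc2a3, but limma on either FPKM scale did not and called Adpgk, higher, in its place. The most abundant of this list, Pgm1 and Pgm2 (phosphoglucomutases), had log2 fold changes of −0.029 and −0.052. The other 10 genes of the list were not tested.

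In the step that follows glycolysis, pyruvate entry to mitochondria, 3 of 11 tested genes passed and all 3 fell, beside 5.24% of all genes that passed lower. Mpc1, a subunit of the mitochondrial pyruvate carrier, stood at 105, 124, 109 and 104 FPKM in TAM-WT and at 99.3, 82.7, 88.7 and 85.3 in TAM-KO. Every TAM-KO value lay below every TAM-WT value, as for 4.8% of all genes compared on 4 against 4 libraries. Mpc1 fell by 0.42 on the log2 scale (SE 0.079, adjusted p = 0.0202, edgeR). Pdp1, a phosphatase that reactivates pyruvate dehydrogenase and so works against the kinase that Pdk1 encodes, stood at 8.67, 6.54, 10.8 and 9.08 FPKM in TAM-WT and at 5.45, 5.03, 5.72 and 6.33 in TAM-KO, and fell by 0.75 (SE 0.17, adjusted p = 0.0295, edgeR). Pdha1, the catalytic α subunit of pyruvate dehydrogenase, fell by 0.20 (SE 0.053, adjusted p = 0.0452, edgeR), and Pdhb, its β subunit, stood at −0.16 with an adjusted p of 0.0790. DESeq2 called the same 3 genes and limma, on either FPKM scale, Mpc1 and Pdp1 only. The median of the list was −0.061. Over the 5 related lists 6 of 75 tested genes passed on all libraries, beside 9.81% of all genes. Leaving out TAM-WT replicate 3 gave 0 calls in edgeR, as did leaving out replicate 2 or replicate 3 of TAM-KO, whereas 2 were left without TAM-WT replicate 4 and 11 were made without TAM-WT replicate 2.

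In the pentose phosphate pathway, which branches from glucose 6-phosphate, 1 of 8 genes passed, beside 9.81% of all genes. Rpia (ribose 5-phosphate isomerase) stood at 13.3, 14.5, 11.8 and 13.1 FPKM in TAM-WT and at 18.7, 18.1, 17.7 and 16.6 in TAM-KO. Every TAM-KO value lay above every TAM-WT value, as for 12.3% of all genes compared on 4 against 4 libraries. Rpia rose by 0.33 on the log2 scale (SE 0.067, adjusted p = 0.0241, edgeR). The most abundant genes of the pathway, Taldo1 (−0.20) and Pgd (−0.078), did not pass.

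Among HIF partners and oxygen-sensing genes, 0 of 11 tested passed in edgeR, DESeq2 or limma, beside 9.81%, 18.2% and 10.3% to 10.7% of all genes. An unadjusted p under 0.05 was found for 2, beside 30.7% of all genes, and log2 fold changes ran from −0.21 to 0.14. Elob and Eloc, adaptors of the VHL ubiquitin ligase and the most abundant of the list, stood at −0.012 and −0.19. Of 32 tested genes among further HIF targets, 23 were below 0, beside 49.7% of all genes, with a median of −0.14. In edgeR 1 passed, beside 9.81% of all genes, and in the other direction. Flt1 (VEGF receptor 1) rose by 1.86 (SE 0.43, adjusted p = 0.0366, edgeR) from 0.29 to 1.29 FPKM in TAM-WT to 0.97, 3.80, 3.42 and 1.45 in TAM-KO. Its TAM-KO replicate 1 value came from the series-wide table and was not in the test, and it lay within the TAM-WT range. DESeq2 called 3 genes of this list, Flt1 and, lower in TAM-KO, Cited2 and Wsb1, and limma called Flt1 with FPKM + 1 and 0 genes with FPKM + 0.1. Hmox1 (heme oxygenase 1) was the most abundant of these, at 4704, 4815, 6679 and 4203 FPKM in TAM-WT and 2979, 3870 and 4920 in TAM-KO replicates 2 to 4, with a log2 fold change of −0.48 (adjusted p = 0.216, edgeR). Fam162a, a hypoxia-responsive mitochondrial protein gene, stood at 0.086.

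**Figure D5:**
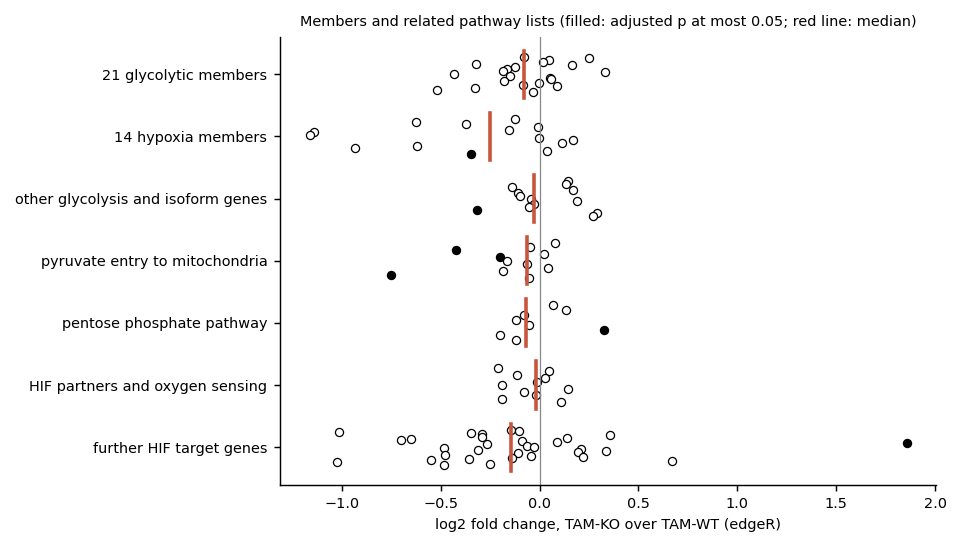
Fitted log2 fold change (TAM-KO over TAM-WT) of each tested gene in the 2 classes of the list and in 5 related lists, with filled points for an adjusted p of at most 0.05 and a red line at each median. The median lies lowest for the hypoxia-response genes (−0.25) and for the further HIF targets (−0.14), and 3 filled points of pyruvate entry to mitochondria lie below 0.

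Markers of other cells moved with the groups and with the libraries. Beside the counts below, 9.81% of all genes passed in edgeR and 30.7% had an unadjusted p under 0.05. DESeq2 called 18.2% of all genes, and limma 10.7% (FPKM + 1) and 10.3% (FPKM + 0.1). The 9 melanoma markers summed to 2655, 4427, 2016 and 1964 FPKM in TAM-WT and to 4532, 5120, 4789 and 3834 in TAM-KO. All 9 had a log2 fold change above 0 (median 0.68) and 1 passed in edgeR (Sox10), with 8 at an unadjusted p under 0.05, 7 called by DESeq2 and 2 by limma on either FPKM scale, and none was near 0 in any group. TAM-WT replicates 3 and 4, highest for Slc2a1, Pfkfb3, Egln3, Ndrg1 and Mxi1, had the lowest melanoma sums, and TAM-WT replicate 2, whose Ldhb was high, had a sum within the TAM-KO range. B16 cells also express glycolytic genes. The 9 immediate early and heat shock genes, which respond to handling as well as to signals, were all below 0 (median −0.85), and 1 passed in edgeR, Atf3. Of these 9, 7 had an unadjusted p under 0.05, DESeq2 called 6 (Atf3, Egr1, Fos, Fosb, Jun and Junb) and limma 1. Their sums were 1533 to 3461 FPKM in TAM-WT and 1143 to 1904 in TAM-KO. Of 8 monocyte markers 4 passed and rose, with sums of 105 to 236 FPKM in TAM-WT and 321 to 469 in TAM-KO replicates 2 to 4. The part of these cells and of sample handling in the values of the glycolytic and hypoxia-induced genes was not tested.

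Markers of the remaining cell types were at low levels. Summed FPKM was 4.41 to 20.5 in TAM-WT and 22.8 to 58.4 in TAM-KO replicates 2 to 4 for 10 T cell markers, and 0.77 to 13.0 and 11.2 to 41.2 for 8 NK cell markers. Of the T cell markers 1 of 10 passed in edgeR (Cd2, higher), with 9 at an unadjusted p under 0.05, 5 called by DESeq2 and 7 by limma on either scale. Cd28, among the 9 and the 5, was lower in TAM-KO (log2 fold change −0.87). Of the NK cell markers 1 of 4 tested passed in edgeR and DESeq2 (Eomes, higher), and all 4 had an unadjusted p under 0.05 and were called by limma. Neutrophil markers, mainly S100a8 and S100a9, set TAM-KO replicate 1 apart. Over the 8 neutrophil markers with a value in every library the sums were 47.2 to 74.3 FPKM in TAM-WT, 214 in TAM-KO replicate 1 and 60.2, 62.7 and 73.2 in TAM-KO replicates 2 to 4, and S100a8 stood at 73.5 FPKM in TAM-KO replicate 1 beside 2.57 to 15.8 in the other 7. In that library S100a9 stood at 80.0 FPKM, while Mmp8, at 17.9, lay within the range of the others. Of 5 tested neutrophil markers, 1 passed in edgeR and limma (S100a8, higher), 4 had an unadjusted p under 0.05 and DESeq2 called 4. Of these 4, S100a8, S100a9 and Csf3r were higher in TAM-KO and Mmp8 was lower (log2 fold change −1.22). Without TAM-KO replicate 1, Pdk1 remained the 1 member that passed, beside 5.47% of all genes. The sums were 11.4 to 27.3 in TAM-WT and 16.4 to 21.1 in TAM-KO replicates 2 to 4 for 9 dendritic cell markers. Of these, 1 passed in edgeR (Xcr1, higher) and 2 in DESeq2 (Xcr1 and, lower, Cd209a). No call was made by edgeR among B cell (0 of 2 tested), fibroblast (0 of 5), endothelial (0 of 4) or red blood cell (0 of 3) markers, with 1, 1, 1 and 0 at an unadjusted p under 0.05 and 1 endothelial gene called by DESeq2 (Pecam1), whose sums stayed at or under 11.3 FPKM in every library with values except for red blood cell markers, at 7.63 to 118 in TAM-WT. The 10 proliferation genes had a median of 0.0081, and 1 passed in edgeR and DESeq2, Pcna, which fell, and 0 in limma.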

How the data were processed

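RNA of sorted TAMs was sequenced on the BGISEQ-500 platform for 4 TAM-WT and 4 TAM-KO samples, with groups and replicate numbers taken from the sample labels. The submitters' processing notes name HISAT2 2.0.4, Bowtie2 2.2.5 and RSEM 1.2.12 and the build GRCm38.p6, and the authors' text gives alignment with Bowtie2 and quantification with RSEM. The expected counts, RSEM's estimates per gene, came unnormalized in the authors' deposited tables and need not be whole numbers. FPKM, deposited by the authors, is relative to gene length and mapped reads. The TPM values that the authors deposited enter no result. The series-wide table of 3996 genes also holds the authors' log2 ratios, p-values and q-values, which were not used. Strandedness of the counting is not given in the sources used here.

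Gene symbols were matched exactly. In the table of TAM-KO replicate 1, 629 values of genes with none in the other 7 tables and 1 broken line were not used. Where both tables give a value, 30780 values were equal and 0 unequal. Rounded expected counts were tested with edgeR 4.0.16 in R 4.3.3 (TMM, filterByExpr, glmQLFit, glmQLFTest). Genes present in all 8 sample tables were fitted on 8 libraries, and genes missing in TAM-KO replicate 1 on the remaining 7, with Benjamini-Hochberg adjustment over all 12412 genes together. SE is the absolute log2 fold change divided by the square root of F, and 95% intervals use the degrees of freedom of the test. The fit was tested on simulated counts. Reads on genes ranged from 16225362 to 17280267, and from 10061535 to 10607640 over the 12572 genes present in every library. Replicates of a group differed by 6.16 to 30.0 times the sampling noise (chi-square per degree of freedom), so none was counted as a repeat. The first principal component held 56.4% of the variance and separated the genotypes. Gene positions, promoter windows and their sequences are from RefSeq on GRCm38.p6.

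The 35 members and all lists were chosen with earlier results of these data known. Named are all members by role and, of each of 5 pathway lists (other glycolysis and isoform genes, pyruvate entry to mitochondria, pentose phosphate pathway, HIF partners and oxygen sensing, further HIF target genes), the genes that passed and the 2 of highest mean FPKM. Genes named beside these were chosen after their values were seen. Marker lists were macrophage, monocyte, neutrophil, dendritic cell, T cell, NK cell, B cell, melanoma cell, fibroblast, endothelial cell, red blood cell, proliferation, and immediate early and heat shock genes. Alternatives were DESeq2 size factors, total reads, DESeq2 1.42.0, limma 3.58.1 on log2(FPKM) with pseudocounts of 1 and 0.1, dropping the filter or requiring at least 10 counts per library, a replicate block, TAM-KO replicate 1 filled from the series-wide table, and each library left out.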

Additional observations from a re-analysis of the deposited data

Results flagged for a closer look

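Among 53 groups of 4 values, 4 held a library far from the other 3 of its group, where chance at 1 in 20 would give 2.65. Hk2 stood at 80.5 FPKM in TAM-WT replicate 3, above 57.1 to 58.2 in the other TAM-WT libraries. TAM-WT replicate 2 stood apart for the other 3 genes. Its Hk3 level was 89.6 FPKM, below 105 to 107.5, its Pfkl level was 92.1 FPKM, above 82.3 to 82.9, and its Ldhb level was 149 FPKM, above 69.6 to 78.6. The melanoma marker sum of this library was also the highest of TAM-WT, 4427 FPKM beside 1964 to 2655.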

How the results depend on the processing

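Over 17 alternatives for each of the 35 genes, 567 of 595 values kept their side of the threshold, and 523 kept their direction as well. The other 44 of them, over 11 genes that did not pass and had log2 fold changes of at most 0.12 in size (Pgk1 in 11 alternatives, Ddit4 in 8 and Hif1a in 7 the most often), had the other sign. Another 23 values newly passed, 5 no longer passed and 0 called values turned. The median of the list stayed below 0 but moved from −0.12 to −0.0040 with scaling to total reads and to −0.0024 with limma on either FPKM scale. Those scales also moved the median of all genes, by 0.087 (total reads, FPKM + 1) and 0.105 (FPKM + 0.1), so the list's median lay 0.093, 0.091 and 0.11 under that of all genes, against 0.12 in the fit reported. Single libraries moved it more: the list's median lay 0.023 under that of all genes without TAM-KO replicate 2, 0.044 without TAM-WT replicate 3 and 0.18 without TAM-WT replicate 2. The calls over all genes were 568 higher and 650 lower, but 870 and 480 with total reads, 916 and 408 with FPKM + 1, and 878 and 406 with FPKM + 0.1. DESeq2 called 2253 genes in place of 1218 and 6 members in place of 1 (Ankrd37, Egln3, Epas1, Gpi1, Ndrg1 and Pdk1). Limma called 1 member on either scale, Hk1 and not Pdk1, and 200 DEGs in place of 314 with FPKM + 1. With TAM-KO replicate 1 filled, 2 members passed (Ndrg1 and Pdk1), beside 8.95% of all genes. The series-wide table, which lists mostly genes that differ, could fill only 3 of the 20 members missing there, Ndrg1 among them. With a fold of at least 2 required, 314 genes and 0 members passed.

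Leaving out each library gave 77 to 2755 genes, 28 to 523 DEGs, 0 to 10 members and 0 to 11 genes of the pathway lists. The fewest genes passed without TAM-KO replicate 2 or 3 (77 each), then without TAM-WT replicate 3 (151), TAM-WT replicate 4 (416) and TAM-KO replicate 1 (682), and the most without TAM-WT replicate 2. The cause was not tested.

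No pairing by replicate number was seen: deviations of same-numbered libraries from their group means had correlations of −0.33, 0.020, −0.23 and 0.26. Those of unlike-numbered libraries ranged from −0.30 to 0.38. With 4 libraries a group, these correlations cannot show whether the samples were paired. With the replicate block, 6 of the 35 members passed (Slc2a1, Pdk1, Egln3, Epas1, Mxi1 and Ndrg1), beside 1080 genes in all, 8.7% of those tested.

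With 4 samples a group, and 3 TAM-KO samples for 20 of the members, the 95% interval of the fold change included 0 for all but 9 of the 35 genes.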

Other observations

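Other HIF target genes, chosen after their values were seen, are given here with their level in each library. Cxcr4, a chemokine receptor gene, stood at 52.3, 47.2, 95.9 and 73.4 FPKM in TAM-WT and at 45.4, 39.96, 47.7 and 47.1 in TAM-KO, with replicates 3 and 4 of TAM-WT the highest and replicate 2 just below the highest TAM-KO value (log2 fold change −0.70, SE 0.27, adjusted p = 0.125, edgeR). Cited2, a competitor of HIF for the coactivators CBP and p300, stood at 88.4, 96.6, 142 and 108 FPKM in TAM-WT and at 83.2, 63.3, 85.96 and 76.1 in TAM-KO. All TAM-KO values of Cited2 lay below all TAM-WT values (log2 fold change −0.65, SE 0.21, adjusted p = 0.0774, edgeR). On 4 against 3 libraries, as tested for Cited2, this held for 8.29% of all genes so compared. Wsb1, a ubiquitin ligase subunit gene, stood at 87.1, 84.1, 109 and 104 FPKM in TAM-WT and at 88.9, 65.8, 80.3 and 66.3 in TAM-KO, where only replicate 1 reached the TAM-WT range (log2 fold change −0.48, SE 0.14, adjusted p = 0.0565, edgeR). None of the 3 passed in edgeR or limma, while DESeq2 called Cited2 and Wsb1. The values of Cxcr4 and Cited2 in TAM-KO replicate 1 came from the series-wide table, which lists mostly genes that differ, and were not in the test.

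Vegfa, the angiogenic growth factor gene, stood at 45.95, 48.5, 62.8 and 59.4 FPKM in TAM-WT and at 47.5, 41.96, 64.5 and 44.8 in TAM-KO, and the groups overlapped (log2 fold change −0.25, SE 0.17, adjusted p = 0.345, edgeR). Car9, a membrane carbonic anhydrase gene, stood at 28.1, 30.8, 23.8 and 23.6 FPKM in TAM-WT and at 27.7, 35.7, 48.7 and 33.9 in TAM-KO, and it did not pass the threshold either (log2 fold change 0.35, SE 0.15, adjusted p = 0.141, edgeR). The lowest Car9 values were in replicates 3 and 4 of TAM-WT, the highest libraries for Cxcr4.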
